A study of Mus musculus with 12 samples.

Results

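The genes described here encode the receptors through which neutrophils sense colony-stimulating factors and cytokines. They are the G-CSF receptor Csf3r, the GM-CSF receptor chains Csf2ra and Csf2rb, the related IL-3 receptor chain Csf2rb2, the interleukin receptor chains Il6ra, Il4ra, Il2rg and Il17ra, the interferon-γ receptor chain Ifngr1, and Socs3, which encodes an inhibitor of signaling from several of these receptors. The members were chosen by name, as the rows of the deposited count table with these gene symbols, and 10 genes of the 29737 in the table were found. Il2rg was selected on these same data, because it passed the test between Tβ-MCA and PBS, so for that comparison the values and counts of the 10 genes are given as a description, with no p and with nothing read from them. All 10 were among the 16761 genes with enough counts to be tested.

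Neutrophils from the bone marrow of wild-type (WT) mice were purified with EasySep magnetic beads as Ly6G+ cells and kept for 24 h in RPMI medium with fetal bovine serum. The medium held PBS as the control, 200 μM taurocholic acid (TCA), 200 μM glycocholic acid (GCA) or, according to the sample labels, 10 μM tauro-β-muricholic acid (Tβ-MCA), and each of the 4 groups had 3 samples. The methods of the study state another dose of Tβ-MCA, so the values with Tβ-MCA are set beside those with the other bile acids without a comparison. The labels give neither the age of the mice nor whether the samples came from separate mice or cultures, so the p-values measure the spread between these samples only, which may be technical. Purified cells cultured for a day are a limited model of neutrophils in tissue, and a few other cells remain after purification.

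Type I cytokine receptors have no kinase activity of their own. Their chains are bound by Janus kinases (JAK), which phosphorylate STAT transcription factors once the ligand brings the chains together, and SOCS proteins made in response then dampen the signal. G-CSF drives the production and release of neutrophils from the bone marrow, GM-CSF prolongs the survival of mature neutrophils, and IL-17 acts on granulopoiesis largely by raising G-CSF in tissue cells.

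Total counts per sample lay between 32757389 and 41375925, so 3 counts, taken as the limit of detection, correspond to 0.0725 to 0.0916 CPM, and this limit covers counting error only. CPM stands for counts scaled to a common library total with edgeR's TMM factors. Neutrophil markers other than Ly6g were abundant. S100a9, a calprotectin subunit, was at 25502, 22050.5 and 21325 CPM in the PBS samples. Ly6g, which encodes the Ly6G antigen, was lower, at 21.4, 18.01 and 17.8 CPM. Some monocyte markers were above Ly6g in these samples, such as F13a1 at 584, 519 and 529 CPM. Others were below it, such as Klf4 at 10.2, 9.18 and 9.87 CPM. Some libraries lay further from their group than others. Against the other replicates of its group, the chi-square per degree of freedom of the counts was 33.65 and 24.66 for Tβ-MCA replicate 5. It was 23.32 and 31.44 for PBS replicate 3. Tβ-MCA replicate 5 lay nearer to PBS than the other Tβ-MCA samples did. The log2 fold changes of the 10 genes with Tβ-MCA and the counts of pathway genes are therefore given with and without it. As it was picked from these same data for lying near PBS, leaving it out tends to widen the differences. Calls without it are a description only. For 12 monocyte and macrophage markers, the CPM summed to 1047, 1038 and 1063 with PBS, 931, 1107 and 1109 with TCA, 1003, 744 and 1027 with GCA and 293, 352 and 815 with Tβ-MCA. F13a1 was the largest term of the PBS sums and was at 54.8, 75.9 and 367 CPM with Tβ-MCA. Csf1r, the next largest with PBS, differed less, at 215, 262 and 271 CPM with PBS and 146, 178 and 235 CPM with Tβ-MCA. The low sums of Tβ-MCA replicates 3 and 4 were shared by 6 eosinophil markers. Their summed CPM was 259, 149 and 164 with PBS and 80.2, 56.8 and 133 with Tβ-MCA, and Prg2 was the largest term. Prg2, Ear2 and Siglecf did not overlap between these groups, whereas Epx, Il5ra and Ccr3 did. In bulk RNA, fewer cells of a type and less RNA per cell cannot be told apart.

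The receptors differed widely in level. Per length of transcript, as RPKM (counts corrected for exon length and library total), Csf3r was the most abundant in the PBS samples, at 272 ± 37.1 RPKM (SD, n = 3), and Il2rg the least abundant, at 7.62 ± 0.363 RPKM. Csf3r stood above 98.99% of the genes tested and Il2rg above 67.2% of them. Between them, in falling order, came Csf2ra at 221 ± 14.3 RPKM, Ifngr1 at 90.9 ± 11.6 RPKM, Csf2rb at 68.5 ± 4.57 RPKM and Il17ra at 44.5 ± 1.84 RPKM. Below these were Il6ra at 26.5 ± 1.68 RPKM, Il4ra at 22.9 ± 1.79 RPKM, Csf2rb2 at 15.8 ± 1.37 RPKM and Socs3 at 12.99 ± 1.69 RPKM. Among neighbors in this order, the ranges of Csf3r and Csf2ra overlapped across the PBS samples, and those of the other neighbors did not. The order was the same by the group means of TCA and GCA, and with Tβ-MCA Socs3 and Csf2rb2 changed places. The plot of CPM by group shows the 12 values of each gene.

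**Figure D1:**
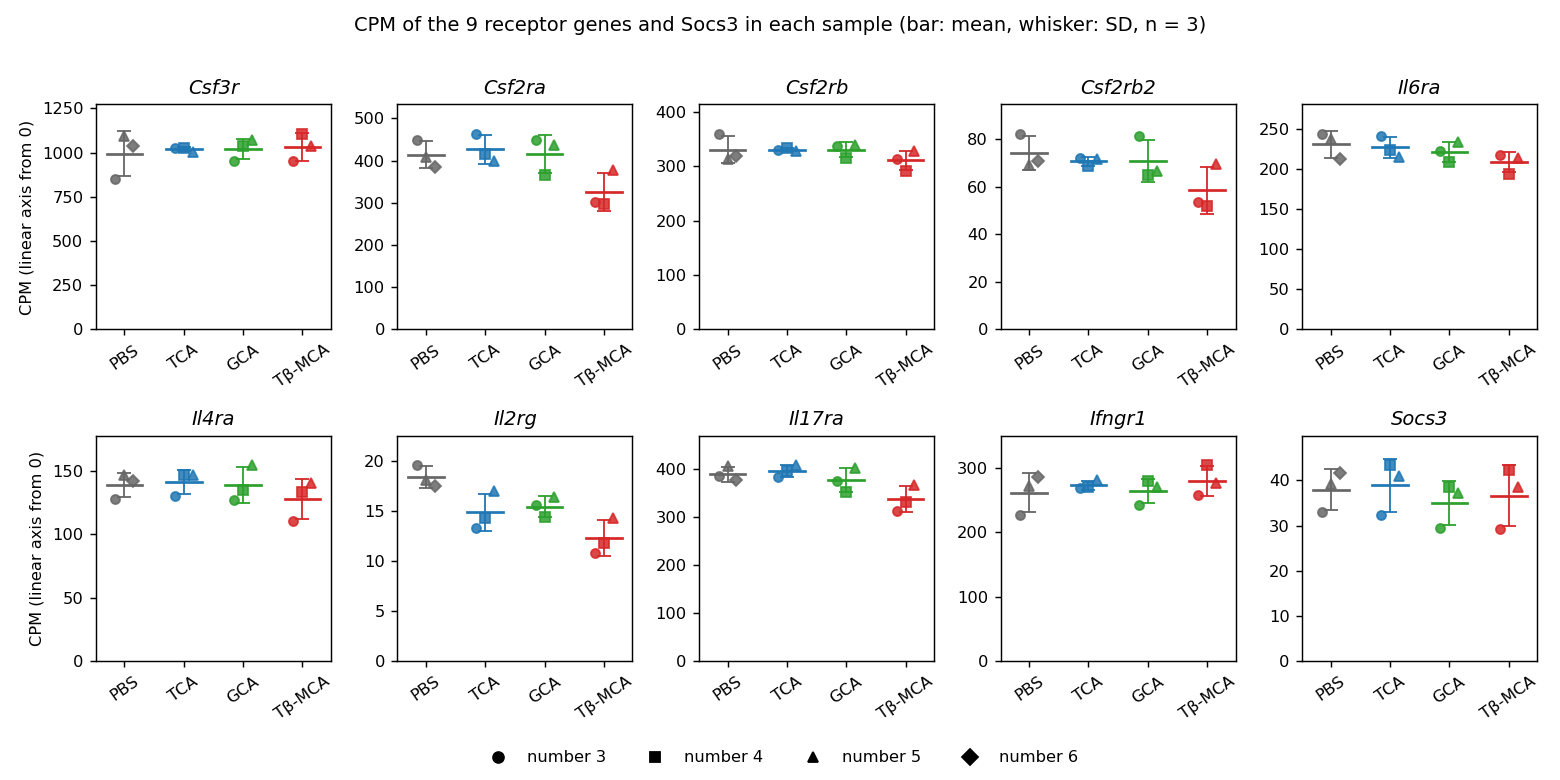
Each panel shows one gene, with the CPM of the 12 samples on a linear vertical axis from 0 and the groups on the horizontal axis. Points are samples, their shape gives the replicate number, the bar is the group mean and the whisker its SD (n = 3). Il2rg shows all 9 bile acid samples under the 3 PBS samples, whereas Csf3r and Csf2rb overlap across the 4 groups.

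Csf3r (chr4:126024550-126044440, plus strand, GRCm38 as are all positions here) encodes the only receptor of G-CSF. Its levels were 851, 1095 and 1036 CPM with PBS, 1026, 1028 and 1006 with TCA, 955, 1035 and 1069 with GCA and 949, 1106 and 1035 with Tβ-MCA. The 4 groups overlapped, and the lowest sample was a PBS sample. The log2 fold change, from edgeR's quasi-likelihood model, was 0.051 with Tβ-MCA (standard error 0.086; 0.047 without replicate 5), 0.037 with TCA and 0.036 with GCA. The 95% interval for TCA, -0.15 to 0.22, shows the size of difference that these samples can leave undetected.

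The GM-CSF receptor is made of the α chain Csf2ra (chr19:61224402-61228418, minus strand), which binds GM-CSF, and the signaling chain Csf2rb (chr15:78325990-78351000, plus strand), which the IL-3 and IL-5 receptors share. Csf2rb2 (chr15:78282517-78305603, minus strand) is a second β chain of the mouse, which serves IL-3 only. Both β chain genes lie close together on chromosome 15. Csf2ra was at 448, 409 and 386 CPM with PBS, 464, 416 and 399 with TCA, 448, 365 and 436 with GCA and 302, 296 and 378 with Tβ-MCA. The 3 Tβ-MCA samples lay below the 3 PBS samples, with replicate 5 close to the lowest PBS sample, and the TCA and GCA samples overlapped those with PBS. The log2 fold change with Tβ-MCA was -0.35 (standard error 0.10) over all samples and -0.47 (standard error 0.094) without replicate 5. Against PBS it was 0.042 with TCA and 0.0074 with GCA.

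Csf2rb2 was at 82.2, 68.9 and 70.8 CPM with PBS, 71.9, 68.5 and 71.6 with TCA, 81.04, 64.8 and 66.6 with GCA and 53.6, 51.8 and 69.7 with Tβ-MCA. Tβ-MCA replicates 3 and 4 were the lowest of the 12 samples and replicate 5 fell within the PBS range. The log2 fold change with Tβ-MCA was -0.34 (standard error 0.11) and moved to -0.49 without replicate 5. Csf2rb was at 359, 312 and 319 CPM with PBS, 329.96, 333 and 327 with TCA, 336, 315 and 339 with GCA and 314, 291 and 327 with Tβ-MCA, and its 4 groups overlapped. Its log2 fold change with Tβ-MCA was -0.089 (standard error 0.067), or -0.13 without replicate 5. The ratio of Csf2ra to Csf2rb in RPKM was 3.21, 3.37 and 3.11 in the PBS samples, 3.62, 3.23 and 3.14 with TCA, 3.43, 2.99 and 3.31 with GCA and 2.48, 2.62 and 2.98 with Tβ-MCA. The lowest GCA sample was below the PBS samples and close to the highest Tβ-MCA sample. The ratio of Csf2rb2 to Csf2rb was 0.236, 0.228 and 0.229 with PBS, 0.225, 0.213 and 0.226 with TCA, 0.249, 0.213 and 0.203 with GCA and 0.177, 0.184 and 0.2201 with Tβ-MCA. The TCA samples, like those with Tβ-MCA, were all below the lowest PBS sample, and the GCA samples lay on both sides of the PBS range.

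A part of the reads of the β chain genes is hard to separate, since their coding sequences are near copies. In GENCODE vM21 the coding sequences of 2691 bases for Csf2rb and 2637 bases for Csf2rb2 were identical at 95.2% of 2631 aligned bases. The longest run shared without a difference was 242 bases. Of the 100-base stretches of Csf2rb, 11% occurred unchanged in Csf2rb2, and of the 150-base stretches 6.49% did. The exons outside the coding sequence were not compared. How the authors' counting treated reads that map to both genes was not given in the sources used here, so the split between these genes is uncertain. A stretch in which the sequences differ most clearly is shown to let a reader see what separates them: it holds 120 coding bases, numbered from the first base of the start codon, as 319 to 438 in Csf2rb and 322 to 441 in Csf2rb2, with the 22 differing bases in capitals.
Csf2rb: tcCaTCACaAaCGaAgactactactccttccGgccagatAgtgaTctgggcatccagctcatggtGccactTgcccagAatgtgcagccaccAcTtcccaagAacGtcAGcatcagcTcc
Csf2rb2: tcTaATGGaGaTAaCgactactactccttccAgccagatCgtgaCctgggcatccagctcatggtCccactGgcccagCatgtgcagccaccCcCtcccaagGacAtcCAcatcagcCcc

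The start regions of Csf2ra and Csf2rb2 are shown because, among the genes of the GM-CSF and IL-3 receptors in this set, these had the lowest Tβ-MCA values relative to PBS. Each sequence is the 250 bases before the start site in RefSeq for GRCm38.p6, written 5′ to 3′ on the strand of the gene, and 8 of the 10 members matched this table. Capitals mark matches on either strand to GAGGAA, a form of the ETS site that the myeloid factor PU.1 binds, to CGGAAG, another ETS site, or to TTCNNNGAA, the site of STAT dimers. Of 32851 start regions of this length, 23.3% held GAGGAA, 13.6% held CGGAAG and 7.02% held TTCNNNGAA. Csf2ra had GAGGAA in 2 adjacent copies that began 14 and 8 bases before the start site. Csf2rb2 had the complement of GAGGAA, beginning 167 bases before the start site, and a STAT match beginning 15 bases before it. Of the other members in the table, GAGGAA was also found in Csf3r and Il6ra and the STAT match in Socs3. The groups of Csf3r, Il6ra and Socs3 overlapped, as did those of Csf2rb2. None of the motifs was found in Il4ra or Ifngr1. The RefSeq start sites do not all meet the gene positions given here. The regions of Csf3r and Il4ra reach into the gene, that of Socs3 lies within it and that of Csf2rb2 lies apart from it. A match describes the letters and does not show binding.
Csf2ra, chr19:61228419-61228668, minus strand: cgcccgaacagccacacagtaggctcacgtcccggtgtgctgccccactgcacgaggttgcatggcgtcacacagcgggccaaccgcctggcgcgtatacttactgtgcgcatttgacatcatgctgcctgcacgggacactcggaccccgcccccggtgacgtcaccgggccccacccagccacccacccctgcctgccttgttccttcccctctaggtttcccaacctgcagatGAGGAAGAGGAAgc
Csf2rb2, chr15:78305722-78305971, minus strand: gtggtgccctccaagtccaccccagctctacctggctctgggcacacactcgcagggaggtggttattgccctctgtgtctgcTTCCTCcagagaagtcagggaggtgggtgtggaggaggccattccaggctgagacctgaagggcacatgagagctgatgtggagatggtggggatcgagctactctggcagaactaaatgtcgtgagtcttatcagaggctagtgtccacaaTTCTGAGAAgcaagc

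Il2rg (chrX:101264378-101268255, minus strand) encodes the common γ chain, which the receptors for IL-2, IL-4, IL-7, IL-9, IL-15 and IL-21 share. Its levels were 19.6, 18.2 and 17.5 CPM with PBS, 13.3, 14.3 and 16.98 with TCA, 15.6, 14.4 and 16.4 with GCA and 10.9, 11.8 and 14.3 with Tβ-MCA. Each of the 9 bile acid samples lay below the lowest PBS sample, and the Tβ-MCA replicates 3 and 4 were the lowest of all. Over the genes tested, 0.889% had all 9 bile acid samples below the 3 PBS samples, and 1 of the 10 members did. The 3 Tβ-MCA samples belong to the comparison that selected Il2rg, and the 3 comparisons with PBS share the same PBS samples, so the side-by-side values are not independent of each other. The fitted level with Tβ-MCA was 0.6702 of that with PBS, a log2 fold change of -0.58 (standard error 0.12), or -0.70 without replicate 5. With TCA the log2 fold change was -0.31, with a 95% interval of -0.55 to -0.061 that is not adjusted for the number of genes. In edgeR's test the unadjusted p was 0.0176 and the p adjusted by Benjamini-Hochberg over all genes was 0.9999, so this difference did not pass. With GCA the log2 fold change was -0.25 (95% interval -0.50 to -0.0061), and it did not pass in edgeR's test either, with an adjusted p of 0.999 and a p of 0.0452 before adjustment. Over the alternative ways of processing, the lowest adjusted p of Il2rg was 0.688 for TCA and 0.902 for GCA.

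The start region of Il2rg, the member with the lowest log2 fold change with Tβ-MCA, had a match to CGGAAG that began 16 bases before the start site and none to the other motifs.
Il2rg, chrX:101268256-101268505, minus strand: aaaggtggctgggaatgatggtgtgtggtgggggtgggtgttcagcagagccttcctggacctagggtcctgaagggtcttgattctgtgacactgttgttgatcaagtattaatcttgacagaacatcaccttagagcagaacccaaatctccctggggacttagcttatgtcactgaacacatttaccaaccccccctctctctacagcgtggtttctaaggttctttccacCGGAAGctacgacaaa

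In the deposited table Il2rg overlaps Gm20489, a gene model on the same strand. Reads in any exons that they share cannot be assigned to either from the table. Gm20489 was also the gene most like Il2rg over the 12 samples, with a Pearson r of log2 CPM of 0.972, at 12.3, 12.5 and 12.5 CPM with PBS and 7.03, 7.59 and 10.1 CPM with Tβ-MCA. The next were Eif5a, a translation factor, with r = 0.962, and Farsa, a subunit of phenylalanyl-tRNA synthetase, with r = 0.956. Eif5a was at 142, 141 and 138 CPM with PBS, 121, 125 and 135 with TCA, 127, 125 and 133 with GCA and 118, 116 and 129 with Tβ-MCA. These values describe likeness of pattern over samples that share groups and library scaling.

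The other interleukin receptor chains had smaller log2 fold changes with Tβ-MCA. Il17ra (chr6:120463247-120487559, plus strand), the chain through which IL-17A signals, was at 385, 408 and 377 CPM with PBS, 385, 398 and 409 with TCA, 376, 353 and 403 with GCA and 314, 332 and 367 with Tβ-MCA. The Tβ-MCA samples lay below those with PBS without overlap, and the log2 fold change was -0.21 (standard error 0.0697), or -0.27 without replicate 5. Il6ra (chr3:89864059-89913196, minus strand), which binds IL-6 and signals through gp130, was at 245, 237 and 213 CPM with PBS, 242, 224 and 216 with TCA, 223, 209.5 and 234 with GCA and 218, 195 and 215 with Tβ-MCA, and all groups overlapped with PBS. Its log2 fold change was -0.15 with Tβ-MCA (standard error 0.072; -0.17 without replicate 5), -0.025 with TCA and -0.0603 with GCA. Il4ra (chr7:125552120-125579474, plus strand), the chain that binds IL-4 and takes part in the response to IL-13, was at 128, 147 and 142 CPM with PBS, 129.9, 147 and 147 with TCA, 127, 135 and 154 with GCA and 110.4, 133 and 140.3 with Tβ-MCA. The groups overlapped, with a log2 fold change of -0.12 with Tβ-MCA (standard error 0.094). It was -0.19 without Tβ-MCA replicate 5 and -0.023 without Tβ-MCA replicate 3. Il6ra and Il4ra each overlap a gene model on the other strand, with median levels over the 12 samples of 45.7 and 11.2 CPM. The libraries were stranded, but the strand setting of the counting was not given in the sources used here.

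Ifngr1 (chr10:19591949-19610229, plus strand), the chain that binds interferon-γ, was at 227, 272 and 286 CPM with PBS, 269, 269.7 and 281 with TCA, 243, 279.6 and 269.9 with GCA and 258, 304 and 276 with Tβ-MCA. It was the member with the largest positive log2 fold change with Tβ-MCA, 0.095 (standard error 0.086), or 0.10 without replicate 5, and its groups overlapped. Socs3 (chr11:117966079-117970047, minus strand), which binds the G-CSF receptor and gp130 and is itself induced by STAT3, was at 32.9, 39.3 and 41.7 CPM with PBS, 32.4, 43.4 and 40.9 with TCA, 29.5, 38.5 and 37.3 with GCA and 29.2, 42.3 and 38.5 with Tβ-MCA. Its groups overlapped too, and the log2 fold change was -0.0501 with Tβ-MCA (standard error 0.15), 0.035 with TCA and -0.11 with GCA. With Tβ-MCA it was -0.087 without replicate 5 and turned to 0.089 without replicate 3.

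Socs3, Ifngr1 and Il4ra split by replicate number in every group. The samples numbered 3 were the lowest of their group in 4 of the 4 groups for each of these genes. Socs3 was at 29.2 to 32.9 CPM in the 4 samples numbered 3 and at 37.3 to 43.4 CPM in the other 8 samples. Ifngr1 was at 227 to 269 and 269.7 to 304 CPM in these sets, and Il4ra at 110.4 to 129.9 and 133 to 154 CPM. For 3 of the 10 members the samples numbered 3 did not overlap the other samples, beside 6.23% of all genes tested. The labels do not say what a number stands for. Some markers of other cells moved with the number. The summed CPM of 6 basophil and mast cell markers was 67.99 to 75.5 in the samples numbered 3 and 42.7 to 49.3 in the others. Of these 6 genes, 3 were highest in number 3 in every group, among them Ms4a2, a chain of the IgE receptor, whereas Kit, Mcpt8 and Fcer1a were not. The sum of 8 B cell markers was also highest in number 3 in the 4 groups, and the sums of the eosinophil and neutrophil markers in 3 of the 4 groups. The sums of the monocyte, the T and NK cell and the erythroid markers were highest in number 3 in 0 of the 4 groups. For the T and NK cell markers the sum was lowest in number 3 in every group. The part of other cells in the values of Socs3, Ifngr1 and Il4ra was not tested.

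**Figure D2:**
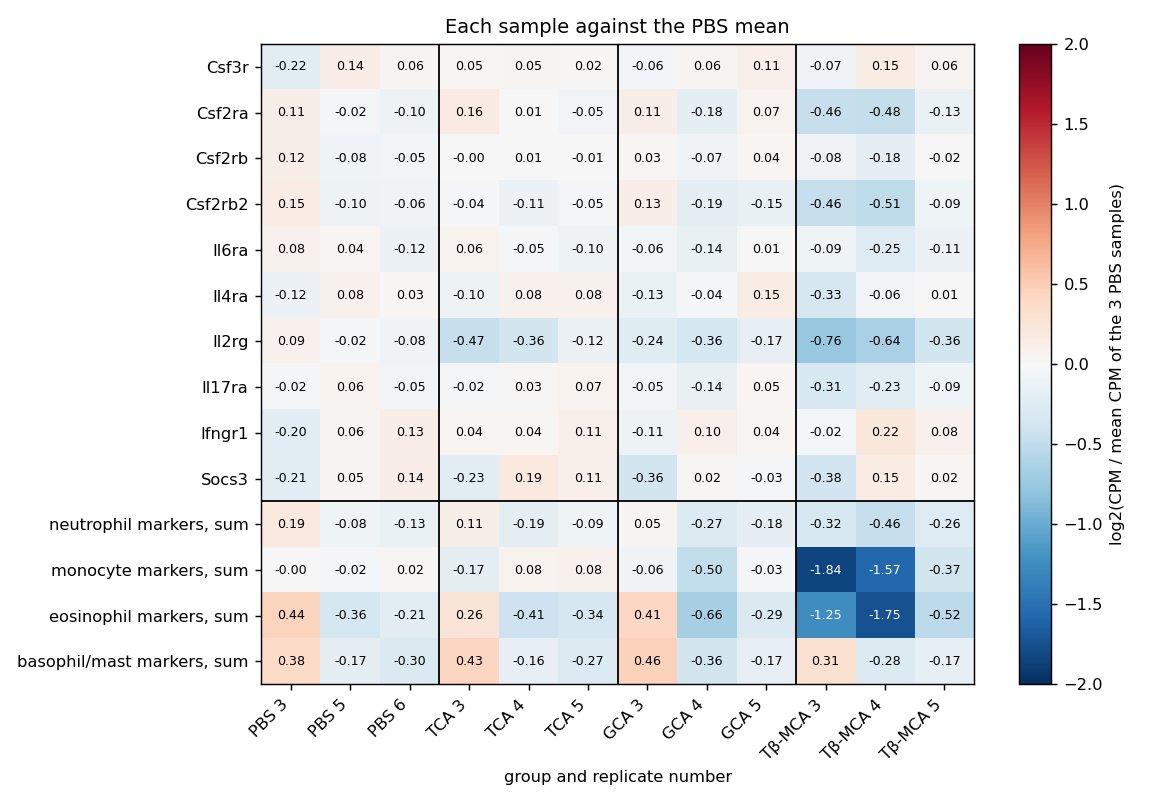
Color and number give the log2 ratio of the CPM in each sample (columns, by group and replicate number) to the mean CPM of the 3 PBS samples, for the 10 members and, under the line, for the summed CPM of 4 lists of cell type markers. Tβ-MCA replicates 3 and 4 were lowest for Il2rg, Csf2ra and Csf2rb2. They were lowest also for the sum of the monocyte markers, at -1.84 and -1.57, in which F13a1 was the largest term with PBS. The samples numbered 3 were lowest in their group for Socs3.

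With Tβ-MCA, 8 of the 10 members had a negative log2 fold change, and their median was -0.13, beside 0.0041 over all genes tested. Scaled by total library size, the median of the members was -0.085 and that of all genes 0.052. Il2rg was the 1 member of 10 with an adjusted p under 0.05, beside 7.62% of all genes tested. Without Tβ-MCA replicate 5 there were 4 members, Csf2ra, Csf2rb2, Il2rg and Il17ra, beside 18% of the genes. The groups did not overlap for 3 members (Csf2ra, Il2rg and Il17ra), beside 27% of the genes. When PBS replicate 3 or 5 or Tβ-MCA replicate 3 or 4 was left out, 0 members were past the threshold. Il2rg was the member inside the threshold, and Csf2ra, with a log2 fold change of -0.35 beside -0.58, was the nearest outside it. As Il2rg was taken from this comparison, nothing is read from these counts or from its place. Csf3r and Socs3 changed sign when single libraries were left out. In 6 of the 8 members that were lower with Tβ-MCA, replicate 5 was the highest of the Tβ-MCA samples. The share of all genes with this pattern was not counted, so it is not shown to be particular to the members. The monocyte markers moved with these values: all 12 were lower with Tβ-MCA, with Ccr2, a chemokine receptor of monocytes, at 51.2, 37.3 and 37.9 CPM with PBS and 2.03, 2.7004 and 29.2 CPM with Tβ-MCA, and F13a1, which monocytes express, at 584, 519 and 529 and 54.8, 75.9 and 367 CPM. None of the 12 passed over all samples and 9 did without replicate 5. All 10 neutrophil markers were lower as well, and 4 passed, among them Ly6g at 7.54, 8.32 and 12.9 CPM with Tβ-MCA (log2 fold change -0.99, adjusted p = 0.0208 in edgeR's test). Monocytes carry the GM-CSF and IL-6 receptors too, and the part of other cells in the values of the members was not tested.

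With TCA and GCA no member passed the test against PBS. In edgeR's test 0 members passed with TCA, beside 0% of all genes, and 1 member, Il2rg, had an unadjusted p under 0.05, beside 3.26% of the genes. With DESeq2, 1 gene of the whole table passed with TCA and it was no member. The groups did not overlap for 1 member with TCA, again Il2rg, beside 9.67% of the genes. With GCA 0 members passed, beside 0% of the genes in edgeR's test and 0 genes with DESeq2. Il2rg alone had an unadjusted p under 0.05, beside 3.53% of the genes, and alone did not overlap, beside 9.55%. The unadjusted p of Il2rg was no longer under 0.05 with TCA when PBS replicate 3 or TCA replicate 3 or 4 was left out. With GCA this was so when PBS replicate 3 or 5 or GCA replicate 3 or 4 was left out and with total library size. The median log2 fold change of the members was 0.024 with TCA and -0.025 with GCA. Apart from Il2rg, the member log2 fold changes with TCA lay between -0.065 for Csf2rb2 and 0.064 for Ifngr1, and those with GCA between -0.11 for Socs3 and 0.036 for Csf3r.

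TCA and GCA are the same cholic acid joined to taurine in one and to glycine in the other, and they were given at the same labelled dose and time, so this 1 pair of compounds was compared. None of the members passed the test, which is 0, beside 0% of all genes with edgeR and 0 genes with DESeq2. At an unadjusted p under 0.05 there were 0 members, beside 2.46% of the genes, and 0 members without overlap, beside 8%. The log2 differences, GCA minus TCA, lay between -0.15 for Socs3 (95% interval -0.48 to 0.18) and 0.055 for Il2rg (95% interval -0.19 to 0.30). For Csf3r the interval was -0.18 to 0.18 and for Csf2ra -0.25 to 0.18. Over the 10 members the intervals reached from -0.48 to 0.30, so differences of that size remain possible and the compounds are not shown to act alike on these genes.

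**Figure D3:**
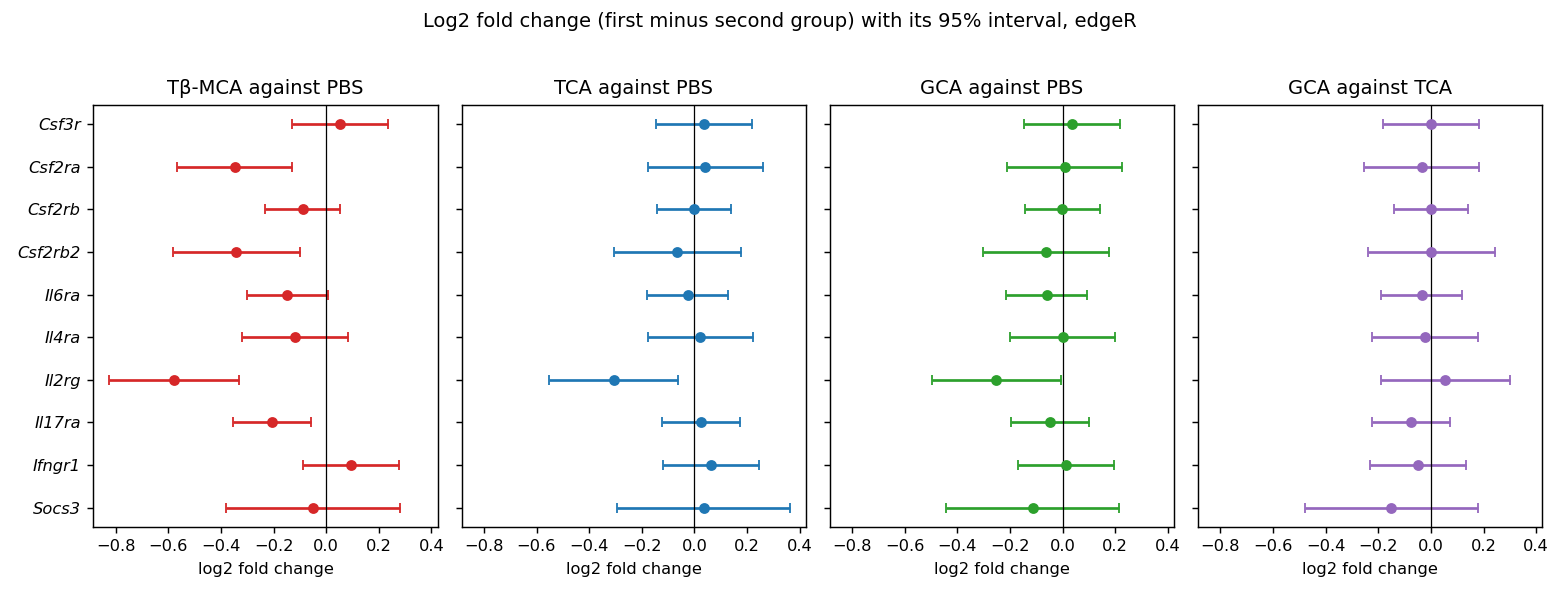
Points are log2 fold changes of the 10 genes (first group minus second, horizontal axis) from edgeR's model of all 12 samples, and bars are their 95% intervals, in a panel for each comparison. With Tβ-MCA, where the bars only describe the error of the fit, the points lie between -0.58 for Il2rg and 0.095 for Ifngr1, with TCA and GCA only the interval of Il2rg lies below 0, and between GCA and TCA all 10 span 0.

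The wider cytokine pathway was examined with lists of ligands, partner chains, kinases, STAT factors, inhibitors and STAT target genes. These were chosen with earlier results of these data known, so the shares called in them are a description only. The lists held 111 genes, of which 106 were found in the table and 77 were tested. With Tβ-MCA 4 of these were higher and 7 lower at an adjusted p under 0.05 in edgeR's test, which is 14.3% beside the 7.62% of all genes, and the median log2 fold change was -0.12. Without Tβ-MCA replicate 5 there were 7 higher and 19 lower of 78 tested, which is 33.3% beside 18% of all genes. These held all 11 of the genes that passed over all samples. The counts of single lists below stand beside the same shares of all genes, 7.62% over all samples and 18% without replicate 5. The calls depended on single libraries, since 0 pathway genes passed when PBS replicate 3 or 5 or Tβ-MCA replicate 3 or 4 was left out, and 2, Ifnlr1 and Il12rb2, when PBS replicate 6 was. A fit of the Tβ-MCA and PBS groups alone left 0 genes of the table past the threshold, and this holds for every pathway gene described as rising or falling here. With TCA, with GCA and between GCA and TCA 0 of the 77 passed in edgeR's test or with DESeq2, and 2 had an unadjusted p under 0.05 in each of these comparisons.

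Several ligands of these receptors had few counts. Csf2, which encodes GM-CSF, had 0 to 2 counts in each sample, Csf3, which encodes G-CSF, 0 to 6 counts, and Ifng 0 to 1 counts. Of 11 ligand genes tested, 1 passed with Tβ-MCA, and 2 did without replicate 5. This was Il12a, the p35 subunit of IL-12, which fell from 4.96, 7.12 and 4.69 CPM to 3.11, 3.29 and 4.34 CPM (log2 fold change -0.64, adjusted p = 0.047 in edgeR's test).

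Of 5 tested chains that pair with the common γ chain or with Il4ra, 1 rose and 1 fell with Tβ-MCA, and without replicate 5 these were 1 and 2 of 6. Il7r, the IL-7 receptor α chain, rose from 5.48, 7.798 and 8.33 CPM to 9.69, 15.8 and 12.02 CPM, a log2 fold change of 0.80 ± 0.22 (standard error) with an adjusted p of 0.0428 by edgeR. Il13ra1, which joins Il4ra in the receptor for IL-13, fell from 7.52, 9.71 and 8.87 CPM to 3.02, 3.67 and 6.56 CPM, a log2 fold change of -0.97 ± 0.25 with an adjusted p of 0.0354. Il2rg was selected in this comparison, so nothing is read from its direction beside that of Il7r. Il21r was at 1.64, 2.44 and 1.73 CPM with PBS and 0.838, 1.49 and 1.63 CPM with Tβ-MCA and did not pass (adjusted p = 0.203). Il15ra had a log2 fold change of -0.022, and Il2rb, the β chain for IL-2 and IL-15, was near the limit of detection at 0.05401 to 0.419 CPM over the 12 samples.

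Il6st encodes gp130, the signaling partner of Il6ra. Its levels were 36.98, 40.8 and 38.9 CPM with PBS, 46.8, 48.5 and 45.1 with TCA, 45.7, 33.1 and 42.4 with GCA and 10.7, 14.7 and 33.7 with Tβ-MCA. Tβ-MCA replicates 3 and 4 were far below the other 10 samples and replicate 5 was near those. The log2 fold change of -0.98 did not pass (adjusted p = 0.126 in edgeR's test). Without replicate 5 it was -1.61 (adjusted p = 3.63e-05). That value is a description only, since the library was picked on these data for lying near PBS. Il3ra, the IL-3 partner of the β chains, showed the same split, at 6.17, 6.09 and 6.58 CPM with PBS and 3.71, 3.78 and 6.29 CPM with Tβ-MCA. Its adjusted p was 0.120 over all samples and 0.00164 without replicate 5, with the same limit. Il5ra, the IL-5 partner and an eosinophil marker, was at 0.918 to 3.47 CPM over the 12 samples and did not pass (adjusted p = 0.480). In the list of other type I receptors 1 of 10 tested genes passed over all samples and 4 did without replicate 5. Il12rb2, a chain of the IL-12 receptor, rose from 2.496, 1.47 and 3.56 CPM to 7.87, 6.18 and 3.72 CPM (log2 fold change 1.23, adjusted p = 0.0365).

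Among type II receptors, 1 of 7 tested genes rose and 1 fell with Tβ-MCA, and without replicate 5 these were 1 and 2. Il10rb, which the receptors for IL-10, IL-22 and type III interferons share, rose from 103, 120.5 and 128 CPM to 173, 189 and 134 CPM (log2 fold change 0.50, adjusted p = 0.0294 in edgeR's test). Ifnlr1, which joins Il10rb in the receptor for type III interferons, fell from 97.6, 96.7 and 81.8 CPM to 59.7, 67.9 and 79.8 CPM (log2 fold change -0.41, adjusted p = 0.0271). Ifngr2, the signaling partner of Ifngr1, was at 68.02, 72.3 and 69.7 CPM with PBS and 55.997, 63.8 and 64.9 CPM with Tβ-MCA and did not pass (adjusted p = 0.148). Il17rc, the partner of Il17ra, had 0 to 9 counts in each sample and was not tested.

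Of the 11 JAK and STAT genes 1 rose with Tβ-MCA and 0 fell, which is 9.09%, near the 7.62% of all genes. Without replicate 5 these were 3 and 0, which is 27.3% beside 18%. Tyk2, a kinase bound by interferon and IL-12 receptor chains, rose from 56.1, 50.99 and 49.998 CPM to 75.6, 63.9 and 60.6 CPM (log2 fold change 0.35, adjusted p = 0.0291 in edgeR's test). Jak3, which binds the common γ chain, had a log2 fold change of 0.23 (adjusted p = 0.161), Jak1 of -0.062 and Jak2, the kinase of the GM-CSF receptor, of 0.082. Stat3, which carries G-CSF and IL-6 signals, was at 252, 239 and 243 CPM with PBS and 248, 239.8 and 245 CPM with Tβ-MCA, a log2 fold change of -0.0023 with a 95% interval of -0.11 to 0.11. Stat5a, Stat5b and Stat6 had log2 fold changes of 0.23, 0.036 and 0.033.

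Among negative regulators, 4 of 18 fell with Tβ-MCA and 0 rose, and without replicate 5 these were 7 and 0. Cish, a SOCS family inhibitor induced by STAT5, fell from 3.18, 2.88 and 2.72 CPM to 1.41, 1.35 and 2.09 CPM (log2 fold change -0.86, adjusted p = 0.0247 in edgeR's test). Socs5 fell from 5.31, 3.71 and 4.42 CPM to 2.48, 2.295 and 2.89 CPM (log2 fold change -0.81, adjusted p = 0.0208). The phosphatase genes Ptpn6, encoding SHP-1, and Ptpn11, encoding SHP-2, fell less, with log2 fold changes of -0.29 (adjusted p = 0.0271) and -0.33 (adjusted p = 0.0338). Socs1 was at 2.09, 1.53 and 1.24 CPM with PBS and 1.14, 0.891 and 1.39 CPM with Tβ-MCA and did not pass (adjusted p = 0.276). In the list of STAT target genes 0 of 10 passed over all samples, and 6 had an unadjusted p under 0.05, beside 24.9% of all genes. Without replicate 5, 1 of these rose and 3 fell. Among 2 tested IL-17 receptor and adaptor genes and 3 receptor tyrosine kinase genes of the same cytokines 0 passed, with 0 at an unadjusted p under 0.05. DESeq2 called 14 pathway genes with Tβ-MCA. Over the whole table it called 2035 of the 14742 genes to which it gave an adjusted p, which is 13.8%. How many pathway genes were among the 14742 was not counted, so the count and the share are not compared.

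**Figure D4:**
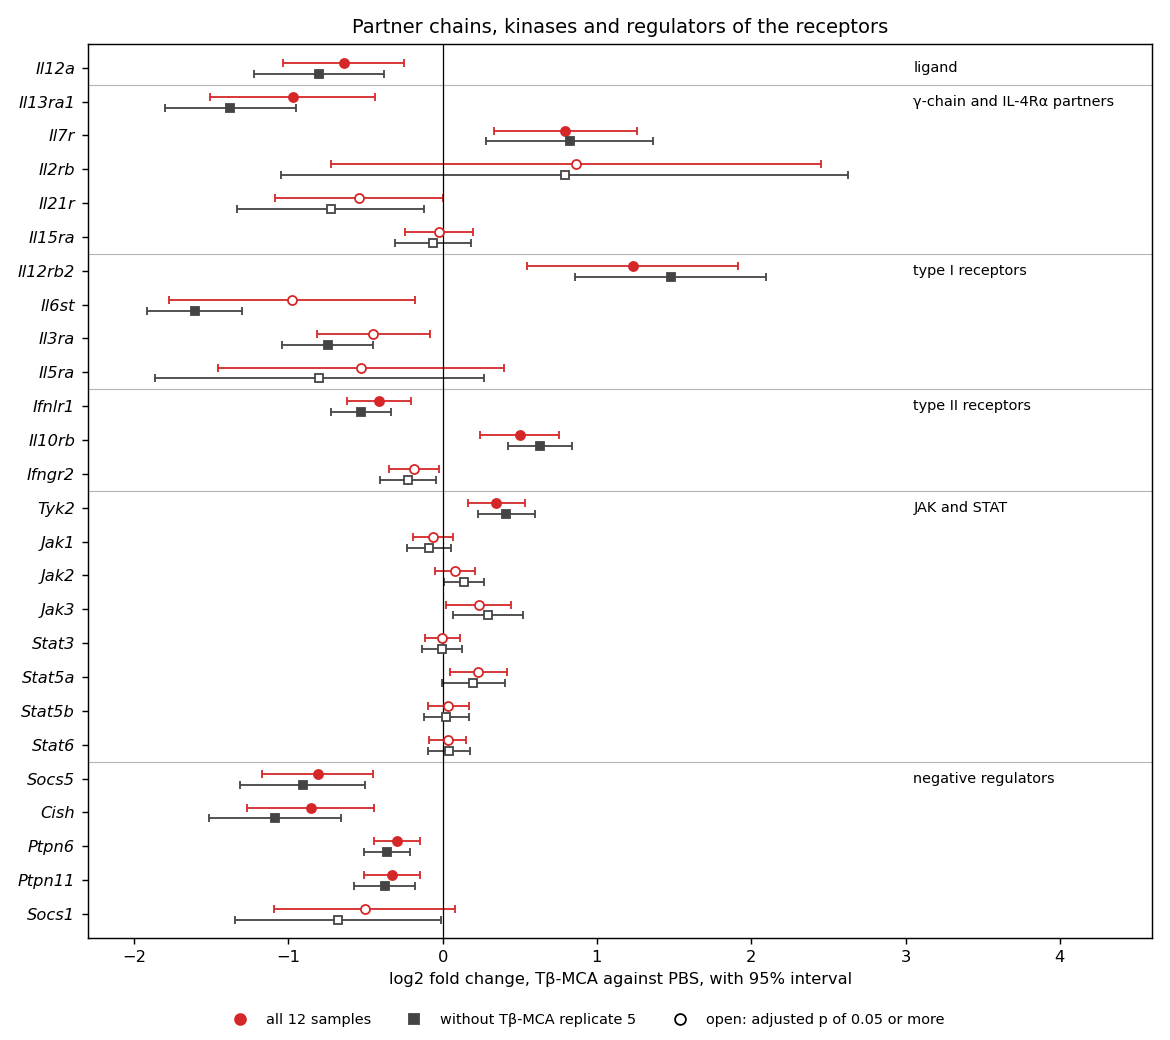
Log2 fold changes of Tβ-MCA against PBS (horizontal axis, with 95% intervals) for the partner chains, kinases and regulators named in the text, grouped by role. Red circles use all 12 samples and dark squares leave out Tβ-MCA replicate 5, with filled symbols for an adjusted p under 0.05: Il6st moves from -0.98, open, to -1.61, filled, while Tyk2, Il10rb and Cish are filled in both.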

How the data were processed

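mRNA of cultured mouse bone marrow neutrophils was sequenced in 12 samples, 3 in each of 4 groups, and samples were grouped by their labels. The submitters' processing notes name Trimmomatic 0.36, STAR 2.5.3a, featureCounts of Subread 1.5.1 and the builds GRCm38 and mm10. The authors deposited raw counts of reads per gene and RPKM values made from them, and a recalculation of RPKM from the counts differed by a relative 1.3e-06 at most. Columns named GA were assigned to GCA from the sample titles. The table lists 29737 genes, with 2 gene names given more than once. Strand setting and treatment of multiply mapped reads were not given in the sources used here. Between replicates, counts differed by more than sampling noise, with chi-square per degree of freedom of 4.79 to 33.65, so all were kept as separate libraries. Total counts were 32757389 to 41375925 and 3 counts, which cover counting error only, were the detection limit.

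Counts were normalized by TMM, filtered with filterByExpr by group (16761 genes left, or 17131 without Tβ-MCA replicate 5) and fitted over all 12 samples with edgeR 4.0.16 robust quasi-likelihood tests (R 4.3.3, limma 3.58.1), with Benjamini-Hochberg adjustment over all genes and a threshold of 0.05. The groups share 1 estimate of the spread. Log2 CPM used a prior count of 2. RPKM was used for levels between genes only. Alternatives were RLE size factors, total library size, no filter, DESeq2 1.42.0, the 2 groups alone, a replicate block, the study's cutoffs (taken as unadjusted p under 0.05 with a 2-fold change) and leaving out each sample. Named genes were the 10 members, fixed partner chains and kinases, in each list up to 4 called genes with the lowest p, the 3 genes most correlated with Il2rg, and markers, of which 1 gene is not reported here. Members and lists were chosen with earlier results of these data known. Start regions are from RefSeq and coding sequences from GENCODE vM21. Python 3.11.15 with pandas 2.3.3, scipy 1.17.1 and matplotlib 3.10.9 made tables and plots.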

Additional observations from a re-analysis of the deposited data

How the results depend on the processing

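With Tβ-MCA against PBS, 1278 genes, 1 member and 11 pathway genes passed. Without the filter on low counts these were 2406, 3 (Csf2ra, Csf2rb2 and Il2rg) and 24, with DESeq2 2035 genes and 4 members (Il17ra added), with only the 2 groups 0, 0 and 0, and with the cutoffs on unadjusted p and 2-fold change 494, 0 and 3. With each sample left out in turn the ranges were 0 to 3076 genes, 0 to 4 members and 0 to 26 pathway genes, the highest without Tβ-MCA replicate 5. Total library size changed the calls from 745 higher and 533 lower to 1013 and 395. For TCA against PBS, where 0 genes passed, there were 37 without the filter, 1 with DESeq2 and 78 at the unadjusted cutoffs. For GCA against PBS there were 36 and 89 genes, and for GCA against TCA 42 and 74, without the filter and at the cutoffs, and without the filter 1 pathway gene (Junb) passed for the former and 2 (Junb and Osm) for the latter. The cause of these changes was not tested.

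The replicate numbers are not said to pair samples. Same-numbered samples deviated from their group means with correlations of 0.060 and 0.24 between PBS and Tβ-MCA, 0.133 and 0.326 between PBS and TCA, 0.129 and 0.323 between PBS and GCA, and 0.067 to 0.308 between TCA and GCA (0.197 to 0.239 between Tβ-MCA and GCA, which were not compared). These were all positive, but with 2 shared numbers, or a value of 0.1 or less, none of the comparisons made met the rule for pairing, and samples did not always correlate best with their own number. With the replicate block, 1498 genes passed with Tβ-MCA, 2 members (Il17ra and Il2rg) and 17 pathway genes, and 3 genes passed with TCA. It changed no other count from 0.

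Signs turned for differences that had not passed. Csf2rb turned with TCA (0.0027 with total library size, 0.0023 without the filter, 0.0003 with the replicate block) and with GCA (0.0002 with RLE, 0.013 with total library size, 0.0041 without the filter, 0.0003 with DESeq2, 0.0002 with the block). For GCA against TCA Csf3r turned to 0.0004 with RLE, 0.011 with total library size, 0.0005 without the filter and 0.0010 with DESeq2, and with the block Csf2rb turned to -0.0002 and Csf2rb2 to -0.0024. Leaving out each sample in turn changed the sign, with these ranges of the log2 fold change, with Tβ-MCA against PBS Csf3r (-0.048 to 0.13) and Socs3 (-0.16 to 0.089), with TCA against PBS Csf3r (-0.065 to 0.11), Csf2ra (-0.023 to 0.0997), Csf2rb (-0.041 to 0.061), Csf2rb2 (-0.11 to 0.015), Il6ra (-0.083 to 0.014), Il4ra (-0.034 to 0.079), Ifngr1 (-0.0302 to 0.13) and Socs3 (-0.059 to 0.15), with GCA against PBS Csf3r (-0.062 to 0.11), Csf2ra (-0.048 to 0.093), Csf2rb (-0.0401 to 0.065), Csf2rb2 (-0.17 to 0.021), Il4ra (-0.083 to 0.059) and Ifngr1 (-0.076 to 0.083), and for GCA against TCA Csf3r (-0.036 to 0.045), Csf2ra (-0.089 to 0.052), Csf2rb (-0.019 to 0.034), Csf2rb2 (-0.11 to 0.062), Il6ra (-0.074 to 0.012), Il4ra (-0.11 to 0.037), Il2rg (-0.017 to 0.16) and Ifngr1 (-0.092 to 0.0072). The members had at least 363 counts in each library.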
